A study of Mus musculus with 37 samples.

Results

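Transcripts of 10 genes of the p53 response and of growth arrest were examined in the livers of adult CD1 mice (Crl:CD1(ICR), an outbred stock) given HFPO-DA (hexafluoropropylene oxide-dimer acid, a short-chain PFAS) by oral gavage. The members are Trp53, Mdm2, Cdkn1a, Ccng1, Bax, Gadd45a, Gadd45b, Gadd45g, Trp53inp1 and Myc. They were chosen by name, with earlier results of these data known, and every probe of each gene was taken. They are 10 of the 21450 genes on the TempO-Seq panel, an assay in which probe pairs are ligated on the RNA of a fixed tissue section and the ligated probes are sequenced and counted. The panel holds 20 probes for the members, of which 18 passed the filter on low counts, so that all 10 genes were tested. The probes left out were the second probe of Mdm2, with 41 counts over all mice, and that of Cdkn1a, with 35.

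The mice were wild type, and the animals of each sex formed a cohort with its own schedule. Vehicle males (n = 5) and males at 0.1 (n = 5), 0.5 (n = 5) or 5 mg/kg (n = 4) received 84 to 85 daily doses, starting 70 days before mating. Vehicle females (n = 5) and females at 0.1 (n = 5), 0.5 (n = 4) or 5 mg/kg (n = 4) received 53 to 65 doses, starting 14 days before mating and ending on lactation day 20 or 21, so that sex, age, number of doses and lactation cannot be told apart. Livers were formalin fixed and paraffin embedded, and the RNA came from sections scraped off slides, so that fewer cells of a type and less RNA per cell cannot be told apart either.

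p53, the product of Trp53, is a transcription factor that is held at a low level by the ubiquitin ligase Mdm2 and accumulates after DNA damage and other stress. Among the genes it is known to activate are Cdkn1a, which encodes the p21 inhibitor of cyclin-dependent kinases, Ccng1 (cyclin G1), Bax (a pore-forming killer of the BCL2 family), Gadd45a, Trp53inp1 and Mdm2 itself, which closes a feedback loop. Gadd45b and Gadd45g are stress sensors related to Gadd45a that are induced largely by other routes, and Myc encodes a transcription factor that drives growth and proliferation. In rodent liver, Gadd45b, Myc and the cyclins are known as early genes of the proliferation that follows partial hepatectomy or a peroxisome proliferator.

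Total counts ranged from 2101495 to 13878254 per mouse, and 2 males stood lowest, 1 at 0.5 mg/kg with 2608954 and 1 at 5 mg/kg with 2101495 (the 2 males of low depth below). Levels are given as CPM, the count of a probe relative to the total count of the mouse, with totals scaled by TMM. Before that scaling, a count of 1 was worth 0.0721 CPM in the deepest mouse. Fold changes are log2 values against the vehicle group of the same sex, with SE. A probe was called where the adjusted p of edgeR's quasi-likelihood test over all 18570 probes was under 0.10. Cyp4a10 and Ehhadh, peroxisome proliferator genes used as a check of the exposure, were higher at 5 mg/kg by 6.47 and 5.51 on the log2 scale in males and by 4.38 and 5.03 in females (edgeR adjusted p at most 3.45e-07). None of 9 hepatocyte markers tested was at 0 in all mice, and their summed level was 35464.4 to 55679.8 CPM in vehicle males against 21463.9 to 28146.1 in males at 5 mg/kg, while in females the ranges were 30273.4 to 43681.8 and 31208.2 to 36019.2. Apoa1, 1 of these markers, weighed heavily in the sum, with a mean of 23637 CPM in vehicle males and 10726.5 in males at 5 mg/kg. In males at that dose 5 of the 9 markers were not called, and the list's median log2 fold change was -0.35. The share of these hepatocyte values in the results below was not tested. Each gene is described by its main probe, the one with the most counts over all mice, and other probes are named as such. Probes bind with unequal efficiency, so levels were not compared between genes.

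At 5 mg/kg, 3 of the 10 genes were called, all of them higher. Bax rose in both sexes, Ccng1 rose in males, and Gadd45b rose in females. In males at 5 mg/kg, 2 of the 18 member probes were called, against 12.7% of all probes in either direction and 4.21% in the upward direction. In females at 5 mg/kg, 2 of the 18 were called, against 4.52% in either direction and 2.26% in the upward direction. The main probes of 9 of the 10 genes had a positive log2 fold change in each sex at this dose. Over the main probes of all genes the share was 43.7% in males and 48.3% in females. Some of the 9 were near 0 and changed sign without 1 mouse, such as Trp53 in males (0.06) and Mdm2 in females (0.01). The median log2 fold change of the 10 main probes was 0.55 in males and 0.29 in females, against -0.11 and -0.02 over the main probes of all genes.

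At the lower doses edgeR called none of the members. In males at 0.1 mg/kg the count was 0, where 0% of all probes were called. At an unadjusted p under 0.05 there were 4 of the 18 member probes, of Gadd45b and Myc, against 7.14% of all probes, and DESeq2 called 1 member, the second probe of Gadd45b. In males at 0.5 mg/kg the count was 0 against 0.625% of all probes, with 3 member probes (1 of Trp53 and 2 of Myc) at an unadjusted p under 0.05 against 10.3% and 0 called by DESeq2. In females at 0.1 mg/kg it was 0 against 0%, with 0 member probes at an unadjusted p under 0.05 against 2.38% and 0 by DESeq2. At 0.5 mg/kg the females had 0 against 0.113%, with 2 member probes (Bax and Gadd45b) at an unadjusted p under 0.05 against 4.33%, and 0 by DESeq2, which gave an adjusted p for 4 of the member probes. All shares are those of edgeR. The share of all probes that DESeq2 called is not given, here or below.

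**Figure D1:**
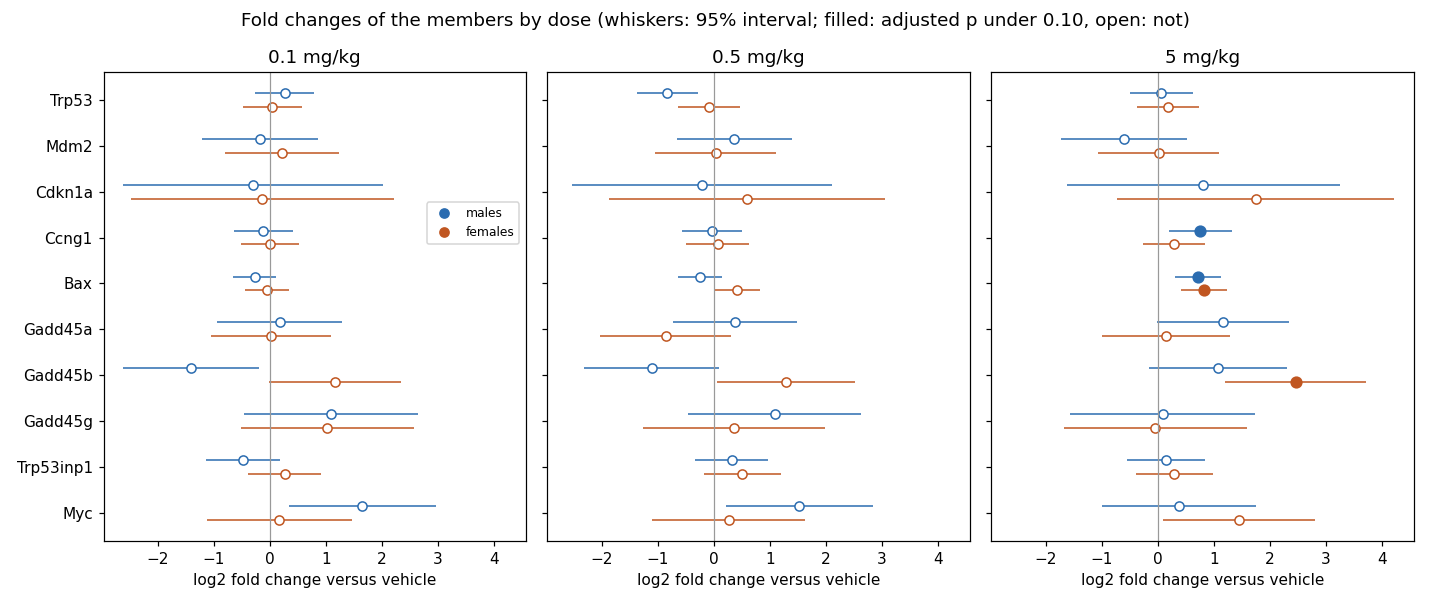
The log2 fold change of each member's main probe against vehicle (x axis) is drawn for each of the 10 genes (y axis) in males (blue) and females (orange) at the low, middle and high dose, with 95% intervals as whiskers and filled points where the adjusted p was under 0.10. The only filled points are Bax in both sexes, Ccng1 in males and Gadd45b in females, all at 5 mg/kg, and the intervals of Cdkn1a and Gadd45g are among the widest at each dose.

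The start regions of the called genes are shown because these are the members that moved, and p53 acts through DNA sites of a known form. RefSeq (GRCm38.p6) gave a promoter for 8 of the 10 members, and Trp53inp1 and Myc were not matched. The 250 bases upstream of the start were searched on both strands for the p53 half-site, for the E-box CACGTG, to which Myc and the clock factors bind, and for the direct repeat of the peroxisome proliferator receptor, a pair of AGGTCA copies with 1 base between them. Capitals mark the p53 half-site.
Bax, chr7:45466899-45467148, minus strand: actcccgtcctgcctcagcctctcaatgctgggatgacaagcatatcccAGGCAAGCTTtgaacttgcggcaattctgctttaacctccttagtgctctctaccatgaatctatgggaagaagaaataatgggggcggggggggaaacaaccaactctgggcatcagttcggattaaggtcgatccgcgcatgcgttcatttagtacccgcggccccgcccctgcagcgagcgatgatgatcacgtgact
Ccng1, chr11:40755287-40755536, minus strand: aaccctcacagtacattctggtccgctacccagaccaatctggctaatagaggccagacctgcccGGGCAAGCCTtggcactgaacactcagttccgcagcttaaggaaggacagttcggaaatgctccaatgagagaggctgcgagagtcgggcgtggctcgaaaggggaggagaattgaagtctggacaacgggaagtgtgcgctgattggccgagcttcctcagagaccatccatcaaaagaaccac
Gadd45b, chr10:80929841-80930090, plus strand: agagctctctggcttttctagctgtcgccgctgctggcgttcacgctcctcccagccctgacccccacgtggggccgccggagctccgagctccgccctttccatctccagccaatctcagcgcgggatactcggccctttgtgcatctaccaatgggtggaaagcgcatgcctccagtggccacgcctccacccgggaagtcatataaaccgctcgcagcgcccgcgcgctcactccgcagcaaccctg

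In Bax the p53 half-site ended 191 bases before the start and in Ccng1 175 bases before it, and the window of Gadd45b held none. Over the matched members, 6 of 8 held at least 1 half-site (Trp53, Mdm2, Cdkn1a, Ccng1, Bax and Gadd45a), against 7.13% of the 32851 RefSeq promoters. The members were chosen in part as known p53 targets, so this share describes the choice of genes. The E-box was found in 3 of 8 (Bax, Gadd45b and Gadd45g), against 6.02% of all promoters, and the direct repeat in 0 of 8, against 0.0335%. A match is a description of the letters and not of binding.

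Bax lies on chromosome 7 from 45461697 to 45466898 (GRCm38, GENCODE M21, minus strand), and its product permeabilizes the outer mitochondrial membrane in apoptosis. In vehicle males its level was 52.8, 86.7, 99.7, 85.6 and 54.0 CPM (mean 75.7 ± 21.1 SD, n = 5). It was 117.4, 100.4, 147.0 and 130.9 CPM in males at 5 mg/kg (mean 123.9 ± 19.8, n = 4), so that each exposed male lay above each vehicle male. This was a log2 fold change of 0.71 with an SE of 0.20 (1.63-fold, edgeR adjusted p = 0.0209). Of all probes, 2.78% had males at 5 mg/kg wholly above vehicle males, as 2 of the 18 member probes did.

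Vehicle females had 51.9, 57.1, 48.1, 40.7 and 58.6 CPM of Bax (mean 51.3 ± 7.25, n = 5). Females at 5 mg/kg had 88.8, 117.9, 96.4 and 58.3 CPM (mean 90.3 ± 24.7, n = 4), where 3 of the 4 lay above each vehicle female and the other lay within the vehicle range. Its log2 fold change was 0.82 with an SE of 0.20 (1.76-fold, edgeR adjusted p = 0.0108). Without the female with 117.9 CPM it was 0.65 and was no longer called (adjusted p = 0.132).

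The lower doses did not move Bax past the test in either sex. In males the mean was 62.5 ± 12.6 CPM at 0.1 mg/kg (n = 5) and 63.6 ± 3.99 at 0.5 mg/kg (n = 5), both below the vehicle mean, with log2 fold changes of -0.28 and -0.25. In females at 0.5 mg/kg the 4 values were 61.9, 63.2, 97.9 and 51.3 CPM, and the log2 fold change was 0.42 with an SE of 0.20 (unadjusted p = 0.0452, edgeR adjusted p = 1). In vehicle mice Bax was higher in males than in females by 0.56 on the log2 scale, which edgeR did not call (adjusted p = 0.161) and DESeq2 did (adjusted p = 0.0510). The second probe of Bax had 752 counts in all, against 22461 for the main probe, and its log2 fold change at 5 mg/kg was 0.61 with an SE of 1.11 in males and 0.96 with an SE of 1.09 in females, neither of them called.

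Ccng1 lies on chromosome 11 from 40748552 to 40755311 (minus strand) and encodes cyclin G1, a cyclin relative that binds a phosphatase rather than driving the cell cycle. Vehicle males had 19.9, 22.2, 14.8, 24.5 and 22.5 CPM (mean 20.8 ± 3.68). Males at 5 mg/kg had 42.2, 32.5, 36.004 and 30.1 CPM (mean 35.2 ± 5.25), again each above each vehicle male. Its log2 fold change was 0.76 with an SE of 0.28 (1.69-fold, edgeR adjusted p = 0.0811).

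This call lay near the threshold. It was kept in 2 of the 9 fits that left out 1 mouse of the groups compared and in 4 of 7 other settings, in which the log2 fold change stayed between 0.63 and 0.87. Males at 0.1 mg/kg were at 16.6 to 21.9 CPM and overlapped the vehicle males. Males at 0.5 mg/kg spread from 7.54 to 37.6 CPM, and their lowest value came from 1 of the 2 males of low depth.

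In females Ccng1 was at 23.6, 35.02, 26.6, 22.03 and 34.1 CPM with vehicle (mean 28.3 ± 6.00) and at 35.1, 31.5, 30.6 and 41.5 CPM at 5 mg/kg (mean 34.7 ± 4.98), and the groups overlapped. This gave a log2 fold change of 0.29 with an SE of 0.27 (95% interval -0.26 to 0.85, edgeR adjusted p = 0.899). The difference between the sexes in the change at 5 mg/kg was 0.47 with an SE of 0.39 (adjusted p = 0.781), so the change was not shown to differ between males and females. Vehicle males had 0.44 less Ccng1 than vehicle females on the log2 scale, with an SE of 0.26 (adjusted p = 0.626).

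Gadd45b lies on chromosome 10 from 80930073 to 80932204 (plus strand) and encodes a stress sensor that binds kinases of the p38 and JNK pathways. Vehicle females had 1.47, 4.20, 6.65, 2.66 and 3.25 CPM (mean 3.64 ± 1.95). Females at 5 mg/kg had 19.4, 17.9, 29.1 and 14.3 CPM (mean 20.1 ± 6.31), so that the lowest exposed female was above the highest vehicle female. A log2 fold change of 2.46 resulted, with an SE of 0.62 (5.51-fold, edgeR adjusted p = 0.0133), the largest called change among the members.

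The second probe of Gadd45b gave the same separation in females at 5 mg/kg. Its values were 3.35, 4.51, 4.87, 1.38 and 10.2 CPM with vehicle and 15.3, 27.998, 23.7 and 10.8 CPM at 5 mg/kg. The change was 1.99 on the log2 scale with an SE of 0.72, which edgeR did not call (adjusted p = 0.153) and DESeq2 did (adjusted p = 0.0439). These were 2 of the 18 member probes with females at 5 mg/kg wholly above vehicle females, against 4.4% of all probes.

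The intermediate doses lay between these levels in females. At 0.1 mg/kg the main probe was at 4.96, 12.3, 12.2, 4.30 and 7.03 CPM (log2 fold change 1.16, SE 0.59, edgeR adjusted p = 1). At 0.5 mg/kg it was at 11.1, 7.005, 9.79 and 7.81 CPM, wholly above vehicle as were 1.52% of all probes, with a log2 fold change of 1.29 and an SE of 0.61 (adjusted p = 1). The second probe did not separate at either dose, and its log2 fold changes were 0.00 and 0.62. Over the 4 dose groups, the linear trend of the main probe in females was 0.75 log2 units per dose step with an SE of 0.20 (adjusted p = 0.0150).

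Males had another order of levels for Gadd45b. Vehicle males had 5.76, 2.46, 1.34, 6.51 and 19.3 CPM, and 1 mouse stood far above the other 4. At 0.1 mg/kg the values were 1.38, 5.94, 1.40, 3.10 and 1.59 CPM and at 0.5 mg/kg 3.71, 0, 1.23, 2.67 and 8.29 CPM, both with means under the vehicle mean (log2 fold changes -1.41 and -1.11, adjusted p = 0.635 and 0.549). At 5 mg/kg they were 18.9, 16.1, 10.5 and 14.1 CPM, each above 4 of the 5 vehicle males, with a log2 fold change of 1.08 and an SE of 0.61 (adjusted p = 0.293). Without the vehicle male with 19.3 CPM it was 1.89 and was called (adjusted p = 0.0594).

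The second probe of Gadd45b was lowest in males at 0.1 mg/kg. The counts there were 0 to 10 per mouse, against 2 to 118 in vehicle males. Its log2 fold change was -3.19 with an SE of 0.79 (unadjusted p = 0.000212, edgeR adjusted p = 0.513), while DESeq2 called it (adjusted p = 0.0508), as did edgeR without the filter on low counts (adjusted p = 0.0599). The low counts of both groups limit what this probe shows. The vehicle male with 19.3 CPM of the main probe was also the highest here, at 16.8 CPM against a vehicle median of 2.94.

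The difference between males and females in the change of Gadd45b was -2.57 at 0.1 mg/kg (unadjusted p = 0.00393, edgeR adjusted p = 0.952) and -2.40 at 0.5 mg/kg (unadjusted p = 0.00767, adjusted p = 0.722) on the log2 scale, males minus females, and -1.39 at 5 mg/kg (adjusted p = 0.622). None of the members was called in these tests by edgeR or by DESeq2, where edgeR called 0%, 0.0108% and 0.63% of all probes from the low to the high dose. At an unadjusted p under 0.05 there were 2 member probes against 4.46% of all probes, 2 against 5.13% and 0 against 10.7%. For Gadd45b, the male change at each dose was taken against the vehicle males, of which 1 stood at 19.3 CPM and the others at 1.34 to 6.51.

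**Figure D2:**
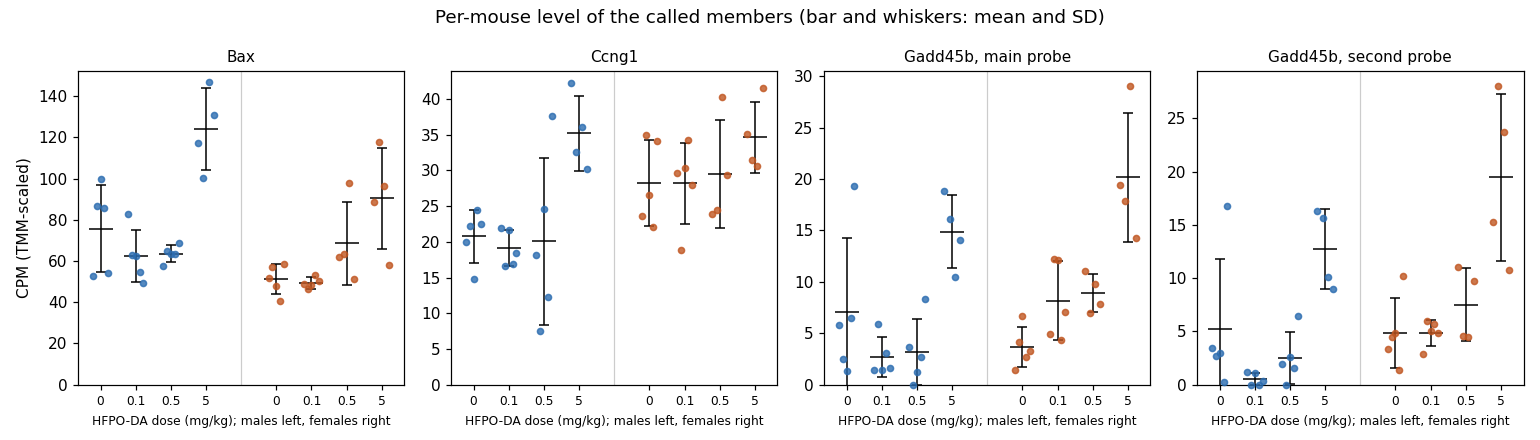
Each point is 1 mouse, with the level in CPM on the y axis (starting at 0) and the dose in mg/kg on the x axis, males on the left in blue and females on the right in orange; bars and whiskers are the mean and SD, cut at 0. Bax at 5 mg/kg lies above vehicle in each male and in 3 of 4 females, Ccng1 separates from vehicle in males, and both probes of Gadd45b separate in females at 5 mg/kg.

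Trp53 lies on chromosome 11 from 69580359 to 69591873 (plus strand). Its level was 28.7, 19.1, 17.7, 25.9 and 20.3 CPM in vehicle males and 18.2, 16.9, 27.003 and 31.2 CPM in males at 5 mg/kg, with overlapping groups and a log2 fold change of 0.06 (95% interval -0.51 to 0.62, edgeR adjusted p = 0.947). Females had 20.5, 26.2, 25.7, 27.4 and 21.0 CPM with vehicle and 18.6, 38.4, 35.1 and 16.9 CPM at 5 mg/kg, with a change of 0.17 on the log2 scale (95% interval -0.38 to 0.73, adjusted p = 1). The groups overlapped in both sexes. Since p53 is controlled mainly through the stability of its protein, the transcript says nothing of the protein.

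In males at 0.5 mg/kg, Trp53 was at 15.8, 9.80, 17.8, 13.2 and 5.84 CPM, and 4 of the 5 were below the lowest vehicle male. The change was -0.83 on the log2 scale with an SE of 0.27 (unadjusted p = 0.00341, edgeR adjusted p = 0.220), so it did not pass the test. These values rest on 26 to 144 counts per mouse. For the second probe of Trp53, the counts at 5 mg/kg were 0 in 3 of 4 males and 18 in the other, which was the male of low depth, and without the 2 males of low depth this probe was called lower (adjusted p = 0.0136).

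Mdm2 lies on chromosome 10 from 117688875 to 117710758 (minus strand). Vehicle males were at 11.9, 4.41, 2.41, 7.84 and 7.67 CPM and males at 5 mg/kg at 3.54, 1.32, 8.25 and 5.25 CPM. This was the member with the lowest fold change in males, -0.61 with an SE of 0.56 (95% interval -1.73 to 0.51, edgeR adjusted p = 0.576). Females had 3.14, 7.17, 6.27, 9.54 and 5.08 CPM with vehicle and 7.59, 9.94, 3.86 and 3.83 CPM at 5 mg/kg, which gave a change of 0.01 (95% interval -1.07 to 1.09, adjusted p = 1). The groups overlapped at each dose in both sexes.

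Cdkn1a lies on chromosome 17 from 29090976 to 29100727 (plus strand), and its p21 product blocks entry into S phase. Its counts were low and uneven. Vehicle males had 0.721, 1.04, 16.9, 0 and 6.39 CPM and males at 5 mg/kg 14.1, 1.43, 0 and 19.3 CPM, so that both groups ran from 0 to over 16 CPM, with a log2 fold change of 0.81 and an SE of 1.21 (edgeR adjusted p = 0.771). Vehicle females had 0.943, 0, 7.40, 0.0984 and 0 CPM, and females at the high dose had 8.29, 6.66, 4.39 and 3.49 CPM, each above 4 of the 5 vehicle females. The log2 fold change in females was 1.75 with an SE of 1.23 (95% interval -0.73 to 4.22, adjusted p = 0.742). Without the vehicle female with 7.40 CPM it was 4.39 and was called (adjusted p = 0.0874), a value that rests on vehicle females at or near 0 and depends on 1 mouse.

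Trp53inp1 lies on chromosome 4 from 11156431 to 11174379 (plus strand) and encodes a nuclear stress protein that takes part in apoptosis and autophagy. With 20885 counts, it was among the best covered members. Vehicle males ranged from 48.6 to 75.4 CPM and males at 5 mg/kg from 42.5 to 88.1 CPM (log2 fold change 0.15, 95% interval -0.55 to 0.84, edgeR adjusted p = 0.871), and the female ranges were 41.6 to 70.6 and 50.6 to 81.8 CPM (0.29, -0.40 to 0.98, adjusted p = 0.969). At 0.5 mg/kg, males ran from 14.3 to 162.3 CPM, the widest spread of this gene.

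Gadd45a lies on chromosome 6 from 67035096 to 67037457 (minus strand). Vehicle males had 10.8, 6.10, 2.14, 4.52 and 13.8 CPM and males at 5 mg/kg 15.3, 14.8, 30.003 and 7.73 CPM, where 3 of 4 lay above all vehicle males. The log2 fold change was 1.16 with an SE of 0.58 (unadjusted p = 0.0521, edgeR adjusted p = 0.219), and its 2 other probes gave -0.43 and 1.11 with SEs of 0.92 and 1.04. In females the ranges were 6.84 to 35.7 CPM with vehicle and 16.8 to 38.7 CPM at 5 mg/kg, which gave 0.14. In vehicle mice it was lower in males than in females by 1.51 on the log2 scale, which edgeR did not call (adjusted p = 0.211) and DESeq2 did (adjusted p = 0.0903).

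Gadd45g lies on chromosome 13 from 51846678 to 51848468 (plus strand) and was spread widely within groups. Its range over mice was 0 to 24.6 CPM in vehicle males, 2.82 to 53.9 at 0.1 mg/kg, 5.32 to 35.3 at 0.5 mg/kg and 3.20 to 16.7 at 5 mg/kg. In females these ranges were 3.05 to 14.5, 6.18 to 38.02, 4.70 to 19.6 and 1.87 to 13.2 CPM. At 5 mg/kg the log2 fold changes were 0.08 with an SE of 0.82 in males and -0.05 with an SE of 0.81 in females (edgeR adjusted p = 0.979 and 1).

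Myc lies on chromosome 15 from 61985391 to 61990374 (plus strand) and had 3 probes. Vehicle males had 3.48, 15.96, 20.9, 2.39 and 3.84 CPM of the main probe, males at 0.1 mg/kg 55.5, 3.56, 7.74, 56.7 and 22.96, and males at 0.5 mg/kg 17.2, 21.1, 5.18, 72.0 and 17.97. At both doses a few mice were above the vehicle range and others within it, and the log2 fold changes of 1.65 and 1.53 did not pass the test (unadjusted p = 0.0151 and 0.0234, edgeR adjusted p = 0.624 and 0.393). The second probe gave 2.37 and 2.19, also with an unadjusted p under 0.05 (0.0253 and 0.0366).

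At 5 mg/kg the males were at 11.1, 12.6, 6.38 and 17.9 CPM of Myc, within the vehicle range (log2 fold change 0.38, SE 0.68). Females went from 9.01, 3.69, 4.68, 13.3 and 4.75 CPM with vehicle to 22.8, 24.5, 21.5 and 8.34 CPM at 5 mg/kg, where 3 of 4 lay above all vehicle females. That log2 fold change was 1.44 with an SE of 0.67 (unadjusted p = 0.0378, edgeR adjusted p = 0.354). It was called where each sex was fitted apart (adjusted p = 0.0947).

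**Figure D3:**
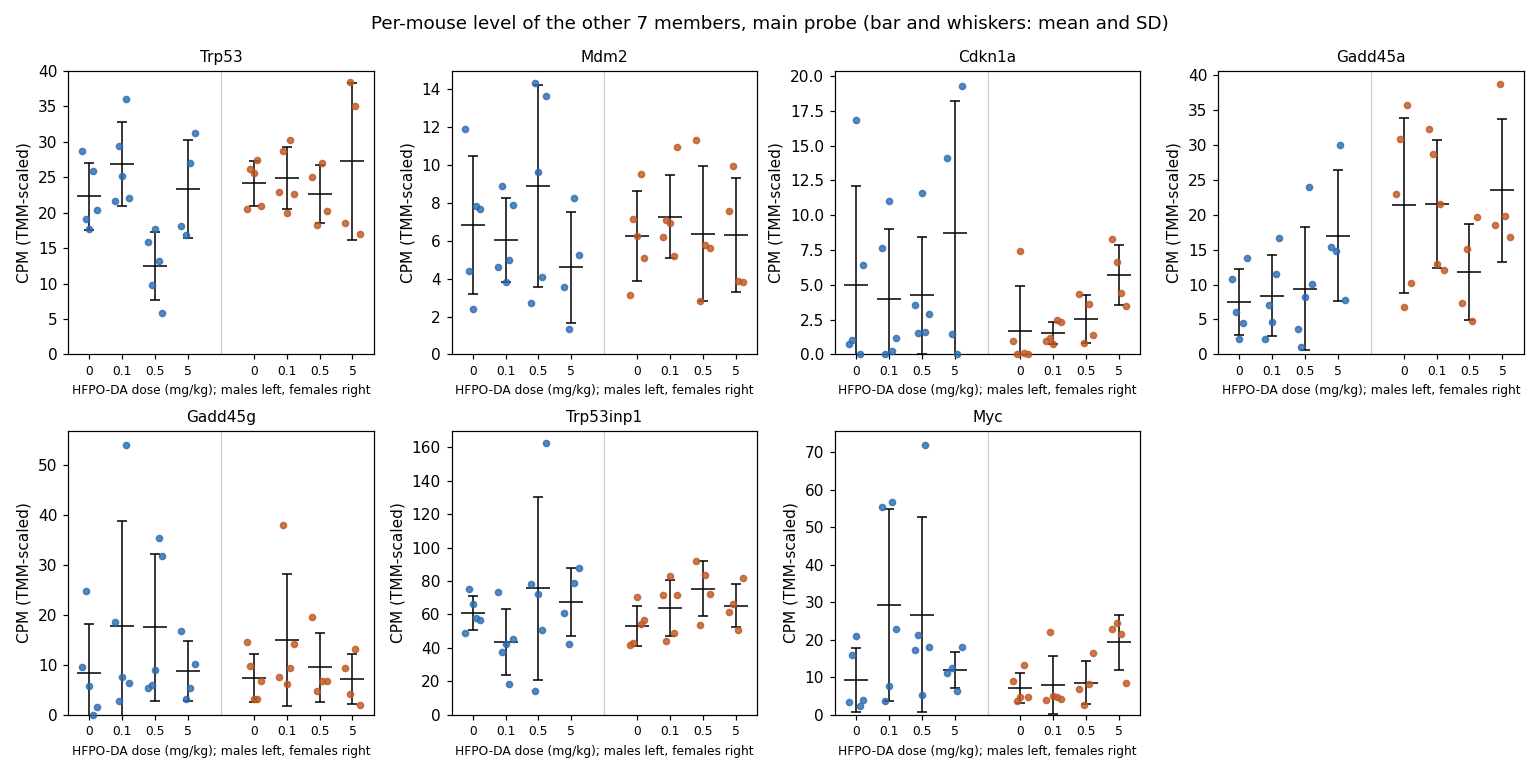
The level in CPM (y axis, starting at 0) of the 7 members that were not called is drawn per mouse against the dose in mg/kg (x axis), males in blue on the left and females in orange on the right, with the mean and SD, cut at 0. Trp53 in males at 0.5 mg/kg is low but did not pass the test, and single high mice set the means of Cdkn1a in vehicle females (7.40 CPM) and of Myc in males at 0.5 mg/kg (72.0 CPM).

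Linear trends over the 4 dose groups in order gave the same genes in females. There, Bax (0.29 log2 units per dose step, edgeR adjusted p = 0.00260) and Gadd45b (0.75) were called, 2 of 18 member probes against 5.3% of all probes. In males 3 of 18 were called, against 13.2%, and these were Bax (0.22, adjusted p = 0.0262), Ccng1 (0.24, adjusted p = 0.0837) and the second probe of Gadd45b (0.60, adjusted p = 0.0949). The trends of Bax and Ccng1 in males came from the step to 5 mg/kg, since both had means below the vehicle mean at the lower doses. Between vehicle males and vehicle females edgeR called 0 of 18, against 2.6% of all probes, with 2 (Bax and Gadd45a) at an unadjusted p under 0.05 against 10.9%. DESeq2 called these 2, among 10 member probes to which it gave an adjusted p.

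The genes whose 6 log2 fold changes were closest to those of Ccng1, by the root mean square difference over 12995 other genes, were Gm49369 (0.0494), Tomm6 (0.0773) and Hpf1 (0.0867). For Bax they were Krt8 (0.114), Rras (0.118) and Arhgap30 (0.134), and for Gadd45b Zfp534 (0.436), Sema4d (0.567) and Fam19a5 (0.579). No other member was among them. Within groups, the members did not vary together beyond the test: of 90 pairs of genes, 45 per sex, 0 had an adjusted p under 0.10 for Pearson's r or Spearman's rho on deviations of log2 CPM from the group mean (100000 permutations), and 8 had an unadjusted p under 0.05. The pair Gadd45g and Myc in males had r = 0.645 and rho = 0.568 (permutation p = 0.00848 and 0.0302, adjusted p = 0.382 and 0.646, n = 19 males), and r = 0.602 without the 2 mice farthest from the median of Gadd45g. Bax and Ccng1, which both rose in males, had r = 0.0282 within groups (permutation p = 0.860).

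Of 35 other known p53 targets tested, edgeR called 1 higher and 4 lower in males at 5 mg/kg, where 4.65% of all genes rose and 8.86% fell, and in females 0 higher and 1 lower, against 2.42% and 2.51%. The called counts lay near the shares over all genes. This list and those below were chosen with earlier results of these data known. An unadjusted p under 0.05 was reached by 5 of the 35 in each sex. The share of all genes at that threshold is not given for 5 mg/kg, here or for the lists below. No excess or lack can therefore be read from such counts. In females at 5 mg/kg DESeq2 gave an adjusted p for 19 of the 35, and for only part of most lists below. The median log2 fold change of the list was 0.15 in males and 0.29 in females, against -0.11 and -0.02 over all genes. Fas, a death receptor, rose in males from 13.4 ± 7.24 to 31.5 ± 13.3 CPM (log2 fold change 1.23, SE 0.41, edgeR adjusted p = 0.0555), and in females it went from 15.9 ± 6.40 to 34.2 ± 16.8 CPM without passing the test (1.11, adjusted p = 0.165), while DESeq2 called it there. Gls2, a mitochondrial glutaminase of hepatocytes, fell in males from 293 ± 52.6 to 103 ± 47.1 CPM (-1.50, SE 0.24, adjusted p = 1.67e-05) and in females from 417 ± 59.6 to 148 ± 28.001 CPM (-1.50, SE 0.24, adjusted p = 2.76e-05). Bbc3, which encodes the PUMA killer protein, fell in males from 37 to 119 counts per mouse with vehicle to 0 to 32 at 5 mg/kg (adjusted p = 0.0117) and had a log2 fold change of -0.03 in females. The other 2 that fell in males had few counts: Polk had 0 to 23 counts per mouse with vehicle and 0 in each male at 5 mg/kg, and Ddit4 had 0 to 41 and 0.

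Of 14 regulators of p53 tested, edgeR called 0 in either sex at 5 mg/kg, with 4 in males and 2 in females at an unadjusted p under 0.05, and DESeq2 called 2 in males (Atr and Trp53bp2) and 1 in females (Atm). Among 12 tested inhibitors of cyclin-dependent kinases and pocket proteins, 1 rose in males, Rb1, with 0 counts in each vehicle male and 0 to 21 per male at 5 mg/kg, and edgeR called 0 in females, with 2 at an unadjusted p under 0.05 and 1 called by DESeq2 (Btg1). Of 15 tested genes of the BCL2 family to which Bax belongs, 1 fell in males (Bbc3). In females edgeR called 0, with 1 at an unadjusted p under 0.05. DESeq2 called 0 there but gave an adjusted p for only 9 of the 15. Bax itself was not counted in that list. Over all genes, 4.65% rose and 8.86% fell in males, and 2.42% rose and 2.51% fell in females.

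Over 25 cyclins and proliferation markers tested, the male median of the log2 fold changes was 0.56 and the female median 0.86, against -0.11 and -0.02 over all genes. Ccnd1, the cyclin of G1 entry, rose from 1.64 ± 2.26 to 19.6 ± 12.1 CPM in males (log2 fold change 3.57, SE 0.81, edgeR adjusted p = 0.00260) and from 4.88 ± 2.57 to 26.4 ± 9.47 CPM in females (2.43, SE 0.75, adjusted p = 0.0655). Ccna2, the cyclin of S phase, rose in males from 2.35 ± 0.712 to 13.8 ± 5.58 CPM (2.55, SE 0.88, adjusted p = 0.0650) and was at 3.12 ± 2.48 and 8.60 ± 4.38 CPM in females (1.45, not called). By edgeR 2 of the 25 rose in males, against 4.65% of all genes, and 1 in females, against 2.42%. The other genes of the list did not pass, 23 in males and 24 in females. Of those in males, DESeq2 called Ccnb1 and E2f1, whose log2 fold changes in edgeR were 5.09 with an SE of 2.06 and 3.22 with an SE of 1.48 (adjusted p = 0.122 and 0.175), and edgeR had 7 of the 25 at an unadjusted p under 0.05.

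Of 22 tested partners and targets of MYC, 1 rose in males (Nme1, 0.52) and 2 fell (Ldha, -0.73, and Mxi1, -0.67). Over all genes, 4.65% rose and 8.86% fell in males. In females edgeR called 0, with 3 at an unadjusted p under 0.05, and DESeq2 called Ldha and Mxi1, whose log2 fold changes in edgeR were 0.50 and -0.45 there. The edgeR test of the difference between the sexes at 5 mg/kg, males minus females, called 1 of the 22, Ldha (-1.23, adjusted p = 0.0157), against 0.63% of all probes. Immediate early and stress genes are the class with which Myc, Gadd45b and Gadd45g are often induced. Of 15 tested, edgeR called 2 lower in males, against 8.86% of all genes, and 1 in females, against 2.51%. It called 0 higher in either sex, against 4.65% in males and 2.42% in females. The list's median log2 fold change was 0.38 in males and 0.12 in females. At an unadjusted p under 0.05 edgeR had 4 of 15 in males and 3 in females. In males DESeq2 called Junb and Jund beside Ier2, and their log2 fold changes in edgeR were -2.28 and 0.45 (adjusted p = 0.133 and 0.200). Ier2 fell from 143 ± 20.1 to 60.9 ± 34.5 CPM in males (-1.22, edgeR adjusted p = 0.00399) and from 188 ± 40.5 to 88.6 ± 24.3 CPM in females (-1.08, adjusted p = 0.0183). Dusp1, a phosphatase of the same class, fell in males (-1.31, adjusted p = 0.0979), a call that DESeq2 did not make.

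Of 15 tested genes of the glucocorticoid and fasting response, 7 fell in males at 5 mg/kg, where 8.86% of all genes fell, Tat, Tsc22d3, Per1, Fkbp5 and Foxo1 among them, and 8 did not pass. In females edgeR called 0 of 15, with 0 at an unadjusted p under 0.05. DESeq2 called 0 there and gave an adjusted p for 13 of the 15. The test of the difference between the sexes at this dose called 2 of the 15, Tat and Per1, against 0.63% of all probes. For the other 13 the change was not shown to differ between males and females. Per1 had few counts per mouse, 7 to 34 in vehicle males and 0 to 1 in males at 5 mg/kg. Females had 0 to 38 counts of Per1 with vehicle and 15 to 49 at 5 mg/kg. Clock genes had 3 of 16 lower in males (Bhlhe40, Per1 and Ciart), against 8.86% of all genes, and 1 of 16 in females (Nfil3), against 2.51%. The time of day and the feeding state at sampling were not compared, and the part of these in the members' values was not tested. Among the markers of other cell types, edgeR called 0 of 10 Kupffer cell and macrophage genes in either sex (0 at an unadjusted p under 0.05, 0 by DESeq2), with summed levels of 102 to 457 CPM in vehicle males, 137 to 404 in males at 5 mg/kg, 222 to 464 in vehicle females and 270 to 557 in females at 5 mg/kg. In females DESeq2 gave an adjusted p for only 5 of these 10 genes. Of the hepatocyte markers, 4 of 9 fell in males (Apoa1, Tat, Cyp2e1 and Cps1), against 8.86% of all genes, and 1 of 9 in females (Ttr), against 2.51%. The part of these falls in the rise of Bax and Ccng1 was not tested. Endothelial markers had 1 of 7 lower in males (Kdr), and edgeR called none of the neutrophil and lymphocyte, stellate and fibroblast, cholangiocyte or erythroid markers at 5 mg/kg, while DESeq2 called 1, Lrat, a stellate cell gene, in males. At an unadjusted p under 0.05 (edgeR) these were 2 neutrophil and lymphocyte and 1 stellate and fibroblast marker in males and 2 erythroid markers in females, and of the endothelial markers in females 1, with 0 called by edgeR or DESeq2. For females, DESeq2 gave an adjusted p for 5 of 7 endothelial and 2 of 9 neutrophil and lymphocyte markers. It gave one for 2 of 3 cholangiocyte and 3 of 4 erythroid markers.

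**Figure D4:**
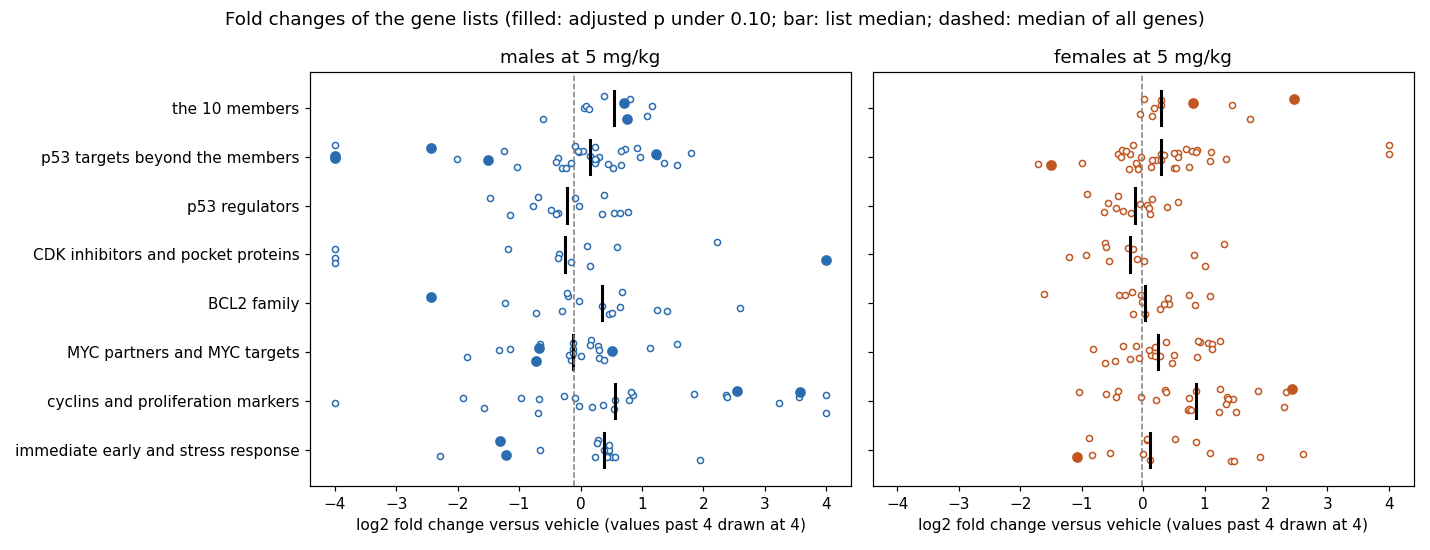
Each point is the main probe of 1 gene, with its log2 fold change at 5 mg/kg on the x axis (values past 4 are drawn at 4 in either direction) and the gene list on the y axis (the members and 7 other lists, without the glucocorticoid, clock and cell type lists), males on the left and females on the right; filled points had an adjusted p under 0.10, black bars are list medians and the dashed line is the median over all genes. The members' medians, 0.55 in males and 0.29 in females, lie to the right of that line. The medians of the other p53 targets, 0.15 and 0.29, also lie to its right. Their few filled points lie more on the left than on the right.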

How the data were processed

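TempO-Seq reads of 37 FFPE liver samples were assigned to probes by the authors, whose processing notes name bcl2fastq 2.17.1.14 and Bowtie, and who deposited the whole-number counts per probe without normalization after leaving out samples of low depth or few probes. The genome build and the place of each probe in its transcript were not given in the sources used here. Sex and dose came from the sample labels. The animals are separate mice, and no 2 mice of a group agreed within sampling noise (lowest chi-square per probe 21.7 over 68 pairs).

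The deposited counts went into edgeR 4.0.16 (R 4.3.3) with filterByExpr over the 8 groups (minimum count 10, minimum total 15), TMM, a quasi-likelihood fit with a mean per group, 12 contrasts, and Benjamini-Hochberg adjustment over 18570 probes with a threshold of 0.10. Dose trends used weights of -3, -1, 1 and 3. DESeq2 1.42.0, the study's tool, was an alternative. Intervals are 95%. The fit was tested on simulated counts. Correlations and figures used Python 3.11.15, numpy 2.4.6, scipy 1.17.1, pandas 2.3.3 and matplotlib 3.10.9, with log2 CPM at a prior count of 2. Before TMM scaling, a count of 1 was worth 0.0721 CPM in the deepest mouse and 0.476 in the shallowest.

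The members and lists were chosen with earlier results of these data known. List genes were named where called at 5 mg/kg, and nearest genes for called members, 3 each. Alternatives were another normalization, DESeq2, no filter, probes summed, sexes apart, thinned counts, a stricter threshold of 0.05 and fits without each mouse in turn. Leaving out the 2 mice of low depth was chosen after seeing the data.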

Additional observations from a re-analysis of the deposited data

Results flagged for a closer look

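Of 80 combinations of member and group checked for a single mouse far from the others, 8 had one by Dixon's test on CPM. In each it was the highest mouse. The test's chance rate of about 1 in 20 holds for normally distributed values. CPM of low counts are skewed upward, so the 8 cannot be read as an excess. Cdkn1a was at 7.40 CPM in 1 vehicle female against 0 to 0.943 in the other 4, and at 11.6 CPM in 1 male at 0.5 mg/kg against 1.51 to 3.55. Gadd45a was at 38.7 CPM in 1 female at 5 mg/kg against 16.8 to 19.8. Gadd45b was at 19.3 CPM in 1 vehicle male against 1.34 to 6.51. Gadd45g was at 38.02 CPM in 1 female at 0.1 mg/kg against 6.18 to 14.1, and at 19.6 CPM in 1 female at 0.5 mg/kg against 4.70 to 6.82. Myc was at 21.9 CPM in 1 female at 0.1 mg/kg against 3.83 to 4.95, and at 72.0 CPM in 1 male at 0.5 mg/kg against 5.18 to 21.1. The high mice of Gadd45g and Myc at 0.1 mg/kg were the same female, the second of that group.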

How the results depend on the processing

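Bax in males was called in 9 of 9 fits without 1 mouse and in 7 of 7 other settings, Bax in females in 8 of 9 and 7 of 7, and Gadd45b in females in 9 of 9 and 7 of 7. For males at 0.1 mg/kg, 1 member was called with no filter and 1 with DESeq2, against 0. For males at 5 mg/kg, 1 member (Bax) was called with no filter, with each sex apart, with thinned counts and at a threshold of 0.05, against 2, and 1 to 2 without 1 mouse. For females at 5 mg/kg, 1 to 3 were called without 1 mouse. The male trend gave 1 with each sex apart, thinned or at 0.05, against 3, and 1 to 3 without 1 mouse, and the vehicle sexes gave 2 with DESeq2 and 0 to 1 without 1 mouse, against 0. Without the 2 males of low depth, Ccng1 and Bax stayed called in males at 5 mg/kg (adjusted p = 0.0875 and 0.0948) and the male trend of Bax was no longer called (0.17, adjusted p = 0.110).

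Changes of sign fell on members that were not called. Leaving out 1 mouse, males gave Trp53 -0.14 to 0.16, Gadd45g -0.46 to 1.02 and Trp53inp1 -0.032 to 0.29, and females gave Trp53 -0.053 to 0.35, Mdm2 -0.31 to 0.20, Gadd45a -0.23 to 0.39 and Gadd45g -0.53 to 0.34. Without the 2 males of low depth, Trp53 in males was -0.055 and Mdm2 in females -0.0056. With probes summed, Gadd45g in males was -0.041 and Gadd45a in females -0.051, and with thinned counts Trp53 in females was -0.021 and Gadd45g 0.18. The causes were not tested. No paired analysis was possible because the labels number no replicates across the groups. Depth limits Cdkn1a and the second probes most, with counts of 0 in several mice.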
